A study of Homo sapiens with 18 samples.

Results

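The genes described here are annotated genes whose reads came mainly from the opposite DNA strand. In strand-specific libraries a read is sense when it lies on the strand of the gene and antisense when it lies on the other strand. Antisense and sense counts were summed over 18 libraries for each of 58336 Ensembl genes, and members were chosen by these sums: a gene was taken when its antisense sum was at least 500 and at least 2 times its sense sum. This gave 2065 genes, among 4695 genes with an antisense sum of at least 500. The libraries came from HEK293A, an established human embryonic kidney line. They were wild type or labelled LATS1/2-DKO, a knockout of both LATS kinases of the Hippo pathway, and were kept for 4 h in H2O, 250 uM ZnCl2 or 50 uM CdCl2. Each of the 6 groups held 3 libraries of polyadenylated RNA. The labels do not say how the knockout was made, whether the line is 1 clone, or whether replicates were separate cultures, so the spread behind each p-value is that between libraries and may be technical.

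An antisense read at a gene is a read of RNA made from the other strand. Such RNA can belong to an annotated gene that overlaps in the opposite orientation. It can also come from a polymerase that passes the end of a neighbouring gene. Normally the cleavage and polyadenylation machinery cuts the nascent RNA behind a hexamer signal near the end of the last exon, and the exonuclease XRN2 then helps to release the polymerase. After heat, osmotic and other stresses, transcription of many human genes is known to run on beyond that point, which is called readthrough. Zinc and cadmium ions bind protein thiols and induce metal, oxidative and heat shock responses. The comparisons below address whether antisense counts rose with metal, and whether they rose relative to the gene on the opposite strand.

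The sequences below show what stands at the end of genes that point towards a member across a gap. Each is the last 30 bases of the gene's annotated end on GRCh38, from GENCODE 29 transcripts, written 5′ to 3′ on that gene's own strand. Capitals mark AATAAA or ATTAAA, the hexamers searched for on this strand only.
CHORDC1, chr11:90201160-90201189, minus strand, before AP000648.3: cttttcttttccttggtatttatggaattc
RPL9, chr4:39452521-39452550, minus strand, before KLB: ccttaagcttgtcctactgtctcgttaccc
RUVBL2, chr19:49015966-49015995, plus strand, before AC008687.4: agacacctccagagtgcggattgagaagcc
SLC30A6, chr2:32224350-32224379, plus strand, before NLRC4: catcaaATTAAActtctttccacgtcctta
TMA16, chr4:163520510-163520539, plus strand, before MARCH1: ttaaaAATAAAatttatttctgcaatttca
SLC30A6 and TMA16 hold a hexamer in these bases and the other 3 do not. In the last 50 bases, 28 of the 56 genes that end before a member held one (50.0%). The share was 74.6% of the 1742 genes that share exons with members, 72.3% of 14513 genes with a sense sum of at least 500, and 39.1% of 58127 annotated ends. A match is a description of letters, and the annotated end of a gene can be that of a minor transcript.

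The members were mostly small non-coding genes lying on the back of a transcribed gene. By GENCODE 29, 1241 of the 2065 were of the type antisense (60.1%) and 464 were protein-coding (22.5%). Each was given an opposite-strand gene as its neighbour. Among overlapping genes this was the one with the highest sense sum, with exon overlap taken before intron overlap. Without overlap it was the nearest gene within 10 kb, with a gene that ends before the member taken first. Exons of both overlapped for 1890 members (91.5%), by a median of 363 bases. Of these, 906 lay inside the neighbour, 633 overlapped it tail to tail, 293 head to head, and 58 contained it. A further 66 overlapped only an intron of the neighbour, 56 lay past its end with a gap of 54 to 9322 bases (median 1869), 11 lay before its start within 10 kb, and 36 had no such neighbour. Another 4 were mitochondrial and 2 were not in the annotation. The 2023 members with a neighbour had 1857 distinct neighbours, 153 of them shared by more than 1 member, so members are not independent of each other.

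The antisense sum had a median of 2479 counts and 336 members reached 10000, while 20 had no sense count at all. These sums chose the members and are given as description only. TSIX, the antisense partner of XIST, had the highest sum at 1501021. It was followed by AC011603.2 at 593801 opposite the tubulin gene TUBA1B, AC006064.4 at 589097 opposite the glycolytic gene GAPDH and AC093484.3 at 449616 opposite the ubiquitin gene UBB. ATG10 had 353010 antisense counts opposite RPS23, a ribosomal protein gene, and AL662797.1 had 296781 opposite TUBB. At the ratio limit, OGG1 (20304 antisense, 10145 sense counts) and DALRD3 (14596, 7286) lay just inside, and ANKDD1A (1327, 666) and ETFBKMT (2160, 1082) just outside. At the sum limit, AC020558.2 (500 antisense counts) and AC108451.2 (503) lay just inside and RAB28P5 (499) and AC090181.1 (499) just outside.

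The deposited files also hold a both-strand count, and comparing the 3 counts showed where the antisense reads of a member lay. Reads on exons of 2 genes are missing from the both-strand count: it came to 99.8% of sense plus antisense reads at 6079 genes that overlap no other gene, and to 6.34% at members. The excess of the both-strand count over the sense count, divided by the antisense count, thus estimates the share of antisense reads outside annotated opposite-strand exons. This estimate is too low where a member's own sense reads lie on shared exons, and negative values were taken as none. It was under 10% for 1607 members. Of the 56 members past a gene end, 52 had at least 50% outside and 4 had under 10%.

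Sense totals ran from 26316120 to 38487213 counts per library and antisense totals from 1429466 to 2151899, which is 4.84 to 5.45% of both. Members held 59.0 to 65.0% of all antisense counts. The antisense share was 5.25 ± 0.180% (SD, n = 3) in wild type in water, 4.88 ± 0.0321% in zinc and 4.90 ± 0.0464% in cadmium. In the knockout it was 5.34 ± 0.0374%, 5.12 ± 0.0576% and 5.09 ± 0.0207%. It was lower with each metal than in water, without overlap, in both genotypes (exact permutation test, two-sided, p = 0.10, the smallest that 3 against 3 allows). LATS1, a targeted gene, lay at 76.3 to 80.1 CPM (counts per 1000000 sense counts) in wild type and 43.3 to 45.4 CPM in the knockout in water, while LATS2 was not lower there (15.6 to 15.7 and 17.3 to 18.1 CPM). LATS2 was lower in the knockout in zinc (34.9 to 39.1 against 42.9 to 48.5 CPM) and in cadmium (23.1 to 24.7 against 38 to 43.3 CPM). The 9 HEK293 markers summed to 125 to 127 CPM in wild type in water, 66.5 to 70.3 in zinc and 56.0 to 58.9 in cadmium, and to 132 to 135, 90.0 to 93.1 and 105 to 107 CPM in the knockout. The 6 fibroblast markers summed to 10.3 to 14.4 CPM in wild type and 47.1 to 60.6 CPM in the knockout. Of 5 keratinocyte and 7 blood markers, 4 and 6 stayed under 1 CPM. The part of these shifts in any result below was not tested.

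Antisense counts of members changed in both directions with metal. All 2065 members passed the filter on low counts, among 10546 genes tested with edgeR's quasi-likelihood test, and 1997 had at least 10 counts in every library. Zinc in wild type raised 452 members and lowered 606 at an adjusted p under 0.05, beside 16.6% of all tested genes called higher and 15.0% called lower. Cadmium in wild type raised 475 and lowered 537 (16.0% and 13.7% of all tested genes). Zinc in the knockout raised 441 and lowered 405 (16.0% and 8.21%), and cadmium raised 345 and lowered 275 (10.6% and 5.16%). As shares of members these were 21.9, 23.0, 21.4 and 16.7% higher and 29.3, 26.0, 19.6 and 13.3% lower. Members are more deeply counted than the tested genes as a whole, whose median antisense sum was 404. Among 2630 other genes with an antisense sum of at least 500, the same comparisons called 555, 528, 591 and 430 higher and 613, 508, 302 and 191 lower. The 4 comparisons share their water libraries by genotype. In bulk RNA, fewer cells with a transcript and less of it per cell cannot be told apart.

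The direction of these calls depends on scaling. The counts above are scaled by sense counts. Scaled by the antisense counts themselves, 285 members were higher and 534 lower for zinc in the knockout and 199 and 397 for cadmium in the knockout. By the sense library size alone, cadmium in wild type gave 349 higher and 806 lower, zinc in the knockout 330 and 578, and cadmium in the knockout 221 and 517. Shares of all tested genes under these scalings are not given, so the shifts cannot be read as particular to members. The median member change moved by no more than 0.15 between scalings in any comparison. The ratio of a member's antisense count to its neighbour's sense count in the same library, used next, needs no such scaling.

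Most members had a change close to that of the gene on the opposite strand. Over 2023 members, the antisense log2 change and the neighbour's sense log2 change had a Pearson correlation of 0.82 to 0.84 in the 4 metal comparisons, a description, since both come from the same libraries and reads on a shared exon enter both counts. It was 0.89 to 0.90 over the 1600 members with under 10% of reads outside opposite-strand exons and 0.58 to 0.65 over the 219 with at least 50%. The 56 members past a gene end had 0.33 to 0.62. Where a member's antisense count was called, its neighbour was called in the same direction in 86.7% of 1032 members for zinc and 88.3% of 986 for cadmium in wild type, and in 89.0% of 824 and of 608 in the knockout. Over all 7705 pairs tested, members or not, the same shares were 73.5, 77.0, 74.5 and 76.3%. They were 62.7, 69.1, 67.3 and 63.2% for members with at least 50% of reads outside and 59.5, 65.5, 66.7 and 54.5% for members past a gene end, beside 49.1, 52.5, 51.5 and 47.1% of all 1295 pairs of that layout. The split by share of reads outside exons was chosen after values were seen.

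**Figure D1:**
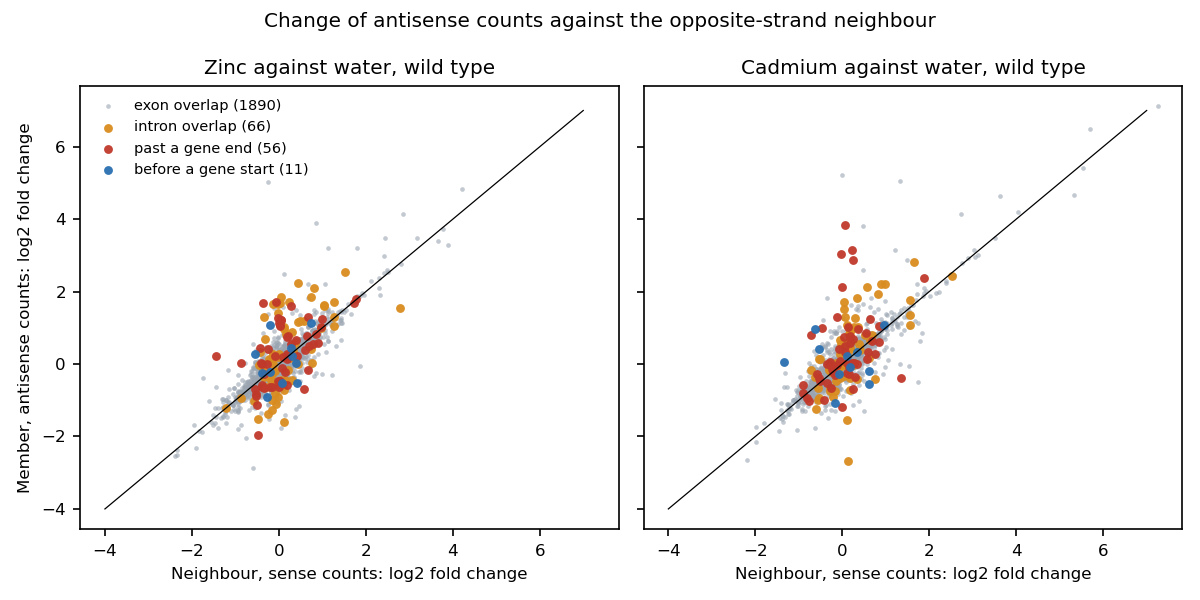
Each point is a member with a neighbour, with the log2 fold change of the neighbour's sense counts on the horizontal axis and of its own antisense counts on the vertical axis, for zinc (left) and cadmium (right) against water in wild type; colours give the class and the line marks equal change. Most exon-overlapping members lie along the line (r of 0.82 and 0.83 over all 2023), while several members past a gene end rise where their neighbour does not.

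The next members lie opposite immediate early, oxidative stress and ribosomal RNA processing genes. They were picked after values were seen unless the rule is named. AC025259.3 (chr12:52058459-52059503), named by the rule for its change in zinc-treated knockout cells, lies inside NR4A1, an immediate early nuclear receptor gene. Its antisense count was 2.43, 2.80 and 3.21 CPM in wild type in water, 19.8, 16.5 and 15.1 CPM in zinc and 55.8, 49.4 and 53.2 CPM in cadmium. Counts in the knockout were 5.06, 5.49 and 5.28 CPM in water, 51.6, 56.1 and 50.6 CPM in zinc and 27.6, 26.3 and 26.4 CPM in cadmium. Metal and water libraries did not overlap, and the higher metal was cadmium in wild type and zinc in the knockout. The log2 change was 2.59 ± 0.10 (SE) for zinc and 4.21 ± 0.09 for cadmium in wild type, and 3.32 ± 0.08 and 2.34 ± 0.08 in the knockout (edgeR adjusted p at most 5.36e-21). NR4A1 sense counts changed by 2.49, 4.04, 3.34 and 2.40, and the ratio to NR4A1 was not called in any of the 4.

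SLC7A11-AS1 overlaps the tail of SLC7A11, the cystine transporter gene of the oxidative stress response. Antisense counts were 2.06, 1.94 and 1.76 CPM in wild type in water, 21.4, 23.4 and 19.4 CPM in zinc and 12.4, 14.4 and 17.2 CPM in cadmium. Knockout libraries had 1.86, 1.15 and 1.67 CPM in water, 8.41, 10.3 and 9.08 CPM in zinc and 10, 11 and 12.8 CPM in cadmium. All metal libraries stood above water. The log2 change was 3.48 ± 0.13 and 2.94 ± 0.13 in wild type and 2.57 ± 0.14 and 2.85 ± 0.14 in the knockout (edgeR adjusted p at most 5.22e-16), beside 3.18, 2.89, 2.16 and 2.42 for SLC7A11. The ratio was not called.

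MRNIP, a protein-coding gene of DNA repair, had 150474 antisense and 14119 sense counts and overlaps SQSTM1 tail to tail, the gene of the autophagy receptor p62. Its antisense count was 112, 115 and 114 CPM in wild type in water, 452, 455 and 409 CPM in zinc and 300, 289 and 291 CPM in cadmium. Knockout libraries had 109, 110 and 107 CPM in water, 361, 366 and 356 CPM in zinc and 267, 263 and 259 CPM in cadmium. Zinc was above cadmium and cadmium above water in both genotypes, without overlap. The log2 change was 1.95 ± 0.04, 1.37 ± 0.04, 1.73 ± 0.04 and 1.27 ± 0.04 in the same order as above (edgeR adjusted p at most 5.05e-24), and that of SQSTM1 was 1.91, 1.31, 1.67 and 1.20.

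AC079305.1 lies inside NFE2L2, the gene of the oxidative stress regulator NRF2. Wild-type means were 1.54 ± 0.188 CPM (SD, n = 3) in water, 4.18 ± 0.968 CPM in zinc and 5.93 ± 1.11 CPM in cadmium, a rise of 1.43 ± 0.18 and 1.93 ± 0.17 on the log2 scale. AC011446.2 lies inside IER2, another immediate early gene. Wild-type means were 18.3 ± 1.89, 90.7 ± 10.1 and 164 ± 7.84 CPM in the same order. Its ratio to IER2 was called for zinc in wild type only by a small amount, 0.18 ± 0.05 (edgeR adjusted p = 0.02).

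AC105020.6 (chr15:75639760-75640976), named by the rule among the most lowered, lies inside IMP3, a gene of ribosomal RNA processing. The antisense count stood at 16.3, 16.7 and 18.8 CPM in wild type in water, 2.76, 3.15 and 3.26 CPM in zinc and 3.84, 4.02 and 3.77 CPM in cadmium. The knockout had 14.1, 13.6 and 14.9 CPM in water, 3.32, 3.60 and 4.80 CPM in zinc and 5.03, 4.88 and 4.49 CPM in cadmium. All metal libraries lay below water. The log2 change was -2.50 ± 0.10 and -2.16 ± 0.10 in wild type and -1.86 ± 0.10 and -1.56 ± 0.10 in the knockout (edgeR adjusted p at most 1.36e-14), beside -2.34, -1.99, -1.68 and -1.58 for IMP3. A second member at the same gene, AC105020.2, fell by 2.38 in zinc and 1.74 in cadmium in wild type on the log2 scale. AC010185.1 opposite KCNJ8, a potassium channel gene, fell by 2.53 in zinc in wild type, and AL390208.1 opposite SESN1, a p53-inducible sestrin gene, by 1.46 there and 1.89 in the knockout.

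**Figure D2:**
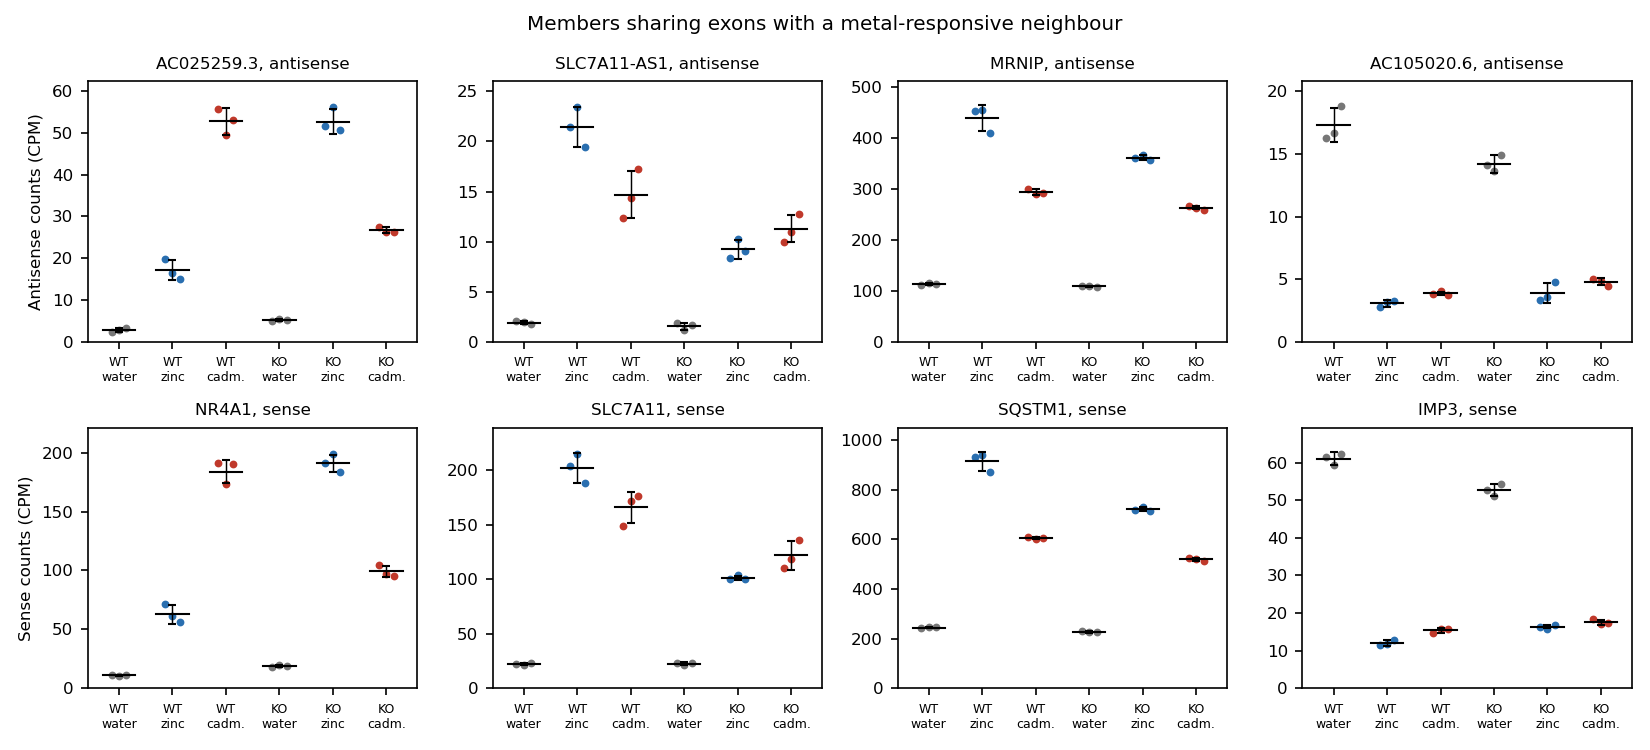
Antisense CPM of 4 members (top) and sense CPM of the gene whose exons they share (bottom) in each library, by group, with the mean (bar) and SD (whisker) of 3 libraries. In AC025259.3, SLC7A11-AS1 and MRNIP all metal libraries lie above water and in AC105020.6 below it, and both rows have the same shape.

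The members with the highest antisense sums follow. TSIX fell by 0.34 ± 0.03 and 0.14 ± 0.03 in wild type and by 0.61 ± 0.03 and 0.20 ± 0.03 in the knockout (log2, zinc before cadmium), and was higher in the knockout than in wild type in water by 1.28 ± 0.03 (edgeR adjusted p at most 0.000188). AC093484.3, opposite UBB, rose in wild type from a mean of 444 ± 19.5 CPM to 671 ± 33.2 CPM with zinc and 566 ± 19.0 CPM with cadmium, and from 658 ± 7.93 CPM to 1184 ± 39.2 and 1144 ± 22.7 CPM in the knockout. AL662797.1, opposite TUBB, fell in wild type from 705 ± 8.54 CPM to 413 ± 12.3 CPM with zinc and 416 ± 7.21 CPM with cadmium, and from 593 ± 4.48 CPM to 458 ± 5.17 and 485 ± 8.58 CPM in the knockout. AC093484.3 and AL662797.1 were past the threshold in all 4 comparisons (edgeR adjusted p at most 1.59e-09). AC011603.2, opposite the other tubulin gene TUBA1B, fell by 0.32 ± 0.03 and 0.30 ± 0.03 in wild type and by 0.08 ± 0.03 for zinc in the knockout (log2). For AC006064.4 opposite GAPDH the log2 change was 0.12 at most, and for ATG10 opposite RPS23 it was 0.19 at most.

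Some members had few counts in water. The 3 described here passed the filter on low counts through metal libraries, so that a difference was bound to appear, and no test is given for them. KRTAP5-2, a hair keratin-associated protein gene inside KRTAP5-AS1, had 0.111, 0.0319 and 0 CPM in wild type in water, 1.45, 1.03 and 1.42 CPM in zinc and 3.84, 3.96 and 4.71 CPM in cadmium. In the knockout it had 3 counts over the 3 water libraries, 43 in zinc and 103 in cadmium. The knockout ratio of metal to water was 15.3 (95% counting interval 4.90 to 77.1) and 38.1 (12.7 to 188). AC022217.2 went from 0.0443 ± 0.0255 to 6.40 ± 0.267 CPM with cadmium in wild type and from 0.0991 ± 0.0611 to 2.12 ± 0.359 CPM in the knockout. DNAH17-AS1 went with zinc from 0.0684 ± 0.0597 to 1.36 ± 0.391 CPM in wild type and from 0.151 ± 0.0538 to 2.60 ± 0.512 CPM in the knockout. Opposite them KRTAP5-AS1, AC022217.1 and DNAH17 rose, by 5.69 and 7.25 for the first 2 in cadmium and 2.85 for DNAH17 in zinc in wild type (log2).

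The ratio to the neighbour changed for fewer members. Of 2023 members, zinc in wild type raised the ratio of 152 and lowered that of 164, where 12.7% of all 7705 gene pairs tested were higher and 7.99% lower. Cadmium in wild type gave 152 higher and 116 lower (11.2% and 6.28% of all pairs). In the knockout zinc gave 115 and 96 (9.81% and 3.82%) and cadmium 79 and 35 (5.17% and 1.61%). As shares of members the higher calls were 7.51, 7.51, 5.68 and 3.91%, and the median ratio change was between -0.00 and 0.01. Shared exons hold the ratio near its value in water, since the same reads stand on both sides. A higher ratio in all 4 comparisons, which share water libraries, was found for 21 members and a lower one for 16, beside 1.66% and 0.571% of all pairs.

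Members past a gene end have the layout in which a transcript that runs past its gene would read antisense across them. Among these 56, zinc in wild type raised the ratio of 14 and lowered that of 7, and cadmium raised 14 and lowered 5. In the knockout zinc raised 11 and lowered 4, and cadmium raised 12 and lowered 5. Median ratio changes were 0.05, 0.13, 0.04 and 0.06 (log2). Over all 1295 pairs of this layout, which include genes with few antisense counts, the same comparisons gave 302, 256, 237 and 110 higher and 92, 82, 36 and 27 lower, with medians of 0.23, 0.20, 0.32 and 0.26. In the members, 21 were higher in at least 1 comparison, 11 were lower in at least 1, 2 of these were both, and 26 were not called. No such counts over all 1295 pairs stand beside these, so they are a description only. A ratio higher with cadmium in both genotypes was found for 11 (5.79% of the 1295 pairs) and with zinc in both for 8 (13.1% of those pairs). Lower ratios in both genotypes were found for 2 with cadmium and 4 with zinc (1.24% and 1.78%). Among the 66 members over an intron, the ratio was higher for 20, 18, 12 and 9 and lower for 12, 8, 13 and 4. As shares these were 30.3, 27.3, 18.2 and 13.6% higher and 18.2, 12.1, 19.7 and 6.06% lower, beside 15.8, 15.0, 11.3 and 6.53% higher and 12.1, 11.1, 7.83 and 2.45% lower of all 613 pairs of this layout.

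**Figure D3:**
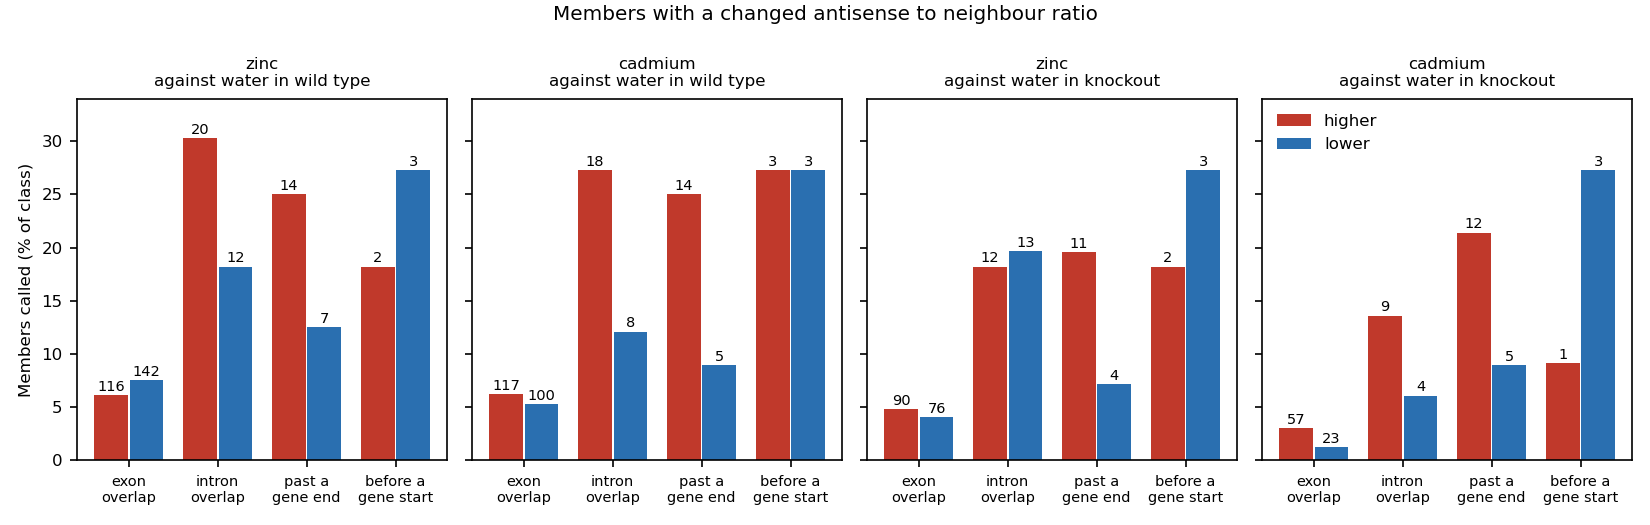
Bars give the share of members in each class whose ratio of antisense count to neighbour sense count was called higher (red) or lower (blue) against water at an adjusted p under 0.05, with the number of members above each bar; the classes hold 1890, 66, 56 and 11 members. In the class past a gene end, higher calls outnumber lower ones in all 4 comparisons, as they do over all 1295 pairs of that layout (23.3, 19.8, 18.3 and 8.49% higher).

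AP000648.3 (chr11:90193614-90198120), with 37170 antisense and 304 sense counts, lies 3040 bases past the end of CHORDC1, the gene of a co-chaperone of HSP90. It was picked after values were seen, as the member past a gene end with the highest sum. Its antisense count was 19.2, 21.3 and 22.1 CPM in wild type in water, 75.8, 77.0 and 65.7 CPM in zinc and 102, 109 and 116 CPM in cadmium. Knockout libraries held 23.8, 24.6 and 24.7 CPM in water, 75.8, 77.7 and 79.3 CPM in zinc and 81.6, 87.1 and 85.8 CPM in cadmium. All metal libraries stood above water, and cadmium stood above zinc in both genotypes. The log2 change was 1.80 ± 0.06 and 2.38 ± 0.06 in wild type and 1.67 ± 0.06 and 1.80 ± 0.06 in the knockout (edgeR adjusted p at most 7.1e-22).

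CHORDC1 itself rose by 1.78 ± 0.03, 1.87 ± 0.03, 1.46 ± 0.03 and 1.32 ± 0.03, from 173 ± 4.17 CPM in wild type in water to 596 ± 15.3 CPM in zinc and 635 ± 32.7 CPM in cadmium. The ratio change was 0.01 ± 0.05 for zinc (edgeR adjusted p = 0.918) and 0.50 ± 0.05 for cadmium (5e-07) in wild type, and 0.21 ± 0.05 (0.00816) and 0.48 ± 0.05 (2e-06) in the knockout. A difference between the metals was not tested. Without replicate 3 of knockout in water, the knockout zinc value was 0.19 with an edgeR adjusted p of 0.061. The promoter of CHORDC1 is shown as a description, with heat shock element letters in capitals. A part of these letters in the rise of CHORDC1 or AP000648.3 was not tested. The bases lie upstream of the start that RefSeq gives on GRCh38.p14, minus strand, 5′ to 3′. By GENCODE 29 the gene reaches further, to base 90223364, so the window lies inside that span.
CHORDC1, chr11:90223050-90223299: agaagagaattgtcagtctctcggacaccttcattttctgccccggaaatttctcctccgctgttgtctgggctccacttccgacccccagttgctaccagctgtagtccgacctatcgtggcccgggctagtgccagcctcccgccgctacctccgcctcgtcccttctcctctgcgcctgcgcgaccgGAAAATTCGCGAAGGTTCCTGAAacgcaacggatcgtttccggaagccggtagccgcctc
The letters searched on both strands were GAA, TTC and GAA in a row with 2 free bases (NN) after each of the first 2 blocks, and this window holds 3 overlapping matches. At least 1 match stood in 155 of 35116 promoters of the same 250 bases (0.441%), and in 9 of the 1998 promoters of members' neighbours (0.450%).

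With cadmium, several members past a gene end rose while the gene before them changed little. AATBC, 465 bases past RRP1, a gene of ribosomal RNA processing, was picked after values were seen, like KLB, AC008687.4, RBFOX3, NLRC4, MUC6 and MARCH1 below. Antisense counts were 0.626, 0.924 and 0.851 CPM in wild type in water, 0.987, 0.73 and 1.55 CPM in zinc and 6.48, 6.85 and 6.61 CPM in cadmium. Counts in the knockout were 0.878, 0.845 and 0.920 CPM in water, 0.890, 1.32 and 1.10 CPM in zinc and 3.38, 2.86 and 3.55 CPM in cadmium. Cadmium libraries stood apart from all others, and zinc overlapped water in both genotypes. The ratio to RRP1 rose by 3.05 ± 0.15 with cadmium in wild type (edgeR adjusted p = 8.71e-12) and by 2.14 ± 0.17 in the knockout (2.4e-08), beside log2 changes of -0.02 ± 0.04 and -0.26 ± 0.04 in RRP1. For zinc in wild type the ratio change of AATBC was 0.87 ± 0.24 (edgeR adjusted p = 0.0113), and 0.54 (0.16) without replicate 3 of that group.

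KLB, the gene of the FGF co-receptor beta-klotho, lies 985 bases past RPL9, a ribosomal protein gene. Its antisense count was 0.368, 0.446 and 0.521 CPM in wild type in water, 0.592, 0.763 and 0.632 CPM in zinc and 3.59, 3.09 and 3.20 CPM in cadmium. In the knockout it was 0.709, 0.755 and 0.533 CPM in water, 0.491, 0.660 and 0.579 CPM in zinc and 1.70, 1.91 and 2.24 CPM in cadmium. Cadmium libraries were the highest in both genotypes without overlap. The ratio to RPL9 rose by 2.61 ± 0.17 (edgeR adjusted p = 4.6e-10) and 1.42 ± 0.17 (1.23e-05), and the rise was smaller in the knockout by a log2 difference of -1.19 ± 0.28 (0.0334). RPL9 has near-identical pseudogene copies, and how reads that fit several genes were counted is not given in the sources used here.

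GGN, a germ cell gene named by the rule, lies 441 bases past PSMD8, a proteasome subunit gene. The antisense count stood at 0.111, 0.0956 and 0.439 CPM in wild type in water, 0.362, 0.299 and 0.948 CPM in zinc and 3.14, 3.09 and 3.86 CPM in cadmium. Knockout libraries had 0.203, 0.181 and 0.194 CPM in water, 0.246, 0.264 and 0.231 CPM in zinc and 0.879, 1.03 and 1.07 CPM in cadmium. Cadmium stood above the other groups in both genotypes, and replicate 3 of wild type was the highest of its group in each treatment. Only the cadmium groups had at least 10 antisense counts in all 3 libraries, so no test is given for GGN. With cadmium the fitted ratio change was 3.77 ± 0.30 and 2.29 ± 0.42, with PSMD8 at 0.07 ± 0.03 and 0.03 ± 0.03. These sizes rest on 22 and 20 antisense counts over the water libraries of wild type and knockout. For zinc in wild type the ratio change of GGN was 1.16, and 2.29 without replicate 3 of wild type in water.

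AC008687.4, 1501 bases past RUVBL2, an ATPase gene of chromatin remodelling complexes, had a higher fitted ratio in all 4 comparisons. Its antisense count was 0.368, 0.382 and 0.247 CPM in wild type in water, 0.79, 0.630 and 0.948 CPM in zinc and 2.68, 3.09 and 3.05 CPM in cadmium. Knockout values were 0.405, 0.242 and 0.194 CPM in water, 0.737, 0.793 and 0.723 CPM in zinc and 0.719, 0.916 and 0.737 CPM in cadmium. Every metal library exceeded the water libraries of its genotype. Only the metal groups had at least 10 antisense counts in all 3 libraries, so no test is given for AC008687.4. Its fitted ratio changes were 1.30 ± 0.27, 2.94 ± 0.20, 1.41 ± 0.28 and 1.42 ± 0.28. The fitted difference of the cadmium change between genotypes, -1.52 ± 0.40, was not called. RBFOX3, the gene of the neuronal splicing factor NeuN, lies 746 bases past ENGASE, a glycan-cleaving enzyme gene, and its ratio rose with cadmium by 2.13 ± 0.31 and 1.67 ± 0.22 (edgeR adjusted p = 3.4e-05 and 3.83e-05).

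Other members past a gene end were called with zinc. NLRC4, an inflammasome gene, lies 74 bases past SLC30A6, a zinc transporter gene of the secretory pathway. Antisense counts were 1.07, 0.86 and 1.02 CPM in wild type in water, 2.50, 1.99 and 1.93 CPM in zinc and 1.43, 1.33 and 1.36 CPM in cadmium. Knockout libraries held 1.45, 1.09 and 1.11 CPM in water, 2.58, 2.25 and 2.81 CPM in zinc and 0.985, 1.11 and 1.31 CPM in cadmium. Zinc libraries were the highest in both genotypes. The ratio rose by 1.13 ± 0.16 and 1.13 ± 0.14 with zinc (edgeR adjusted p = 1.92e-05 and 6.94e-06). For cadmium it was 0.42 ± 0.17 (0.125) and -0.18 ± 0.17 (0.708), and the difference between metals was not tested. The log2 change of SLC30A6 was 0.09 at most.

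MUC6, a gastric mucin gene 576 bases past the clathrin adaptor gene AP2A2, had 0.468 ± 0.0894 CPM in wild type in water, 1.54 ± 0.376 CPM in zinc and 0.959 ± 0.122 CPM in cadmium. In the knockout it had 0.997 ± 0.0546, 2.25 ± 0.323 and 0.735 ± 0.194 CPM. The MUC6 ratio rose by 1.78 ± 0.24 and 0.89 ± 0.17 with zinc (edgeR adjusted p = 9.61e-06 and 0.00110). With cadmium it rose by 0.88 ± 0.26 in wild type (0.0222) and its value in the knockout was -0.51 ± 0.23 (0.226). The wild-type cadmium call was lost without replicate 1 or 3 of water or replicate 2 or 3 of cadmium, with edgeR adjusted p of 0.074, 0.057, 0.059 and 0.091. GRIN2C, a glutamate receptor gene 2244 bases past TMEM104 and named by the rule, had a ratio change of 2.07 ± 0.30 with zinc in wild type (edgeR adjusted p = 3.17e-05) and 0.67 ± 0.24 in the knockout (0.0751). With cadmium the GRIN2C ratio rose in both, by 1.52 ± 0.35 (edgeR adjusted p = 0.00326) and 1.10 ± 0.24 (0.00702). PDE6A, a photoreceptor phosphodiesterase gene past PPARGC1B picked after values were seen, had a higher ratio with zinc in both genotypes and with cadmium in the knockout, by 0.89 (edgeR adjusted p = 9.32e-05), 1.0 (0.000168) and 1.67 (1.56e-07). With cadmium in wild type the value was 0.34 (0.139). Only 2.02% of the antisense reads of PDE6A lay outside annotated opposite-strand exons.

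Members past a gene end also fell. MARCH1, an E3 ubiquitin ligase gene 3759 bases past TMA16, had 6.26, 6.91 and 6.34 CPM of antisense counts in wild type in water, 7.30, 7.99 and 7.40 CPM in zinc and 2.80, 3.26 and 2.53 CPM in cadmium. The knockout had 5.27, 5.31 and 5.86 CPM in water, 4.36, 5.02 and 4.11 CPM in zinc and 3.46, 4.08 and 4.25 CPM in cadmium. Cadmium libraries lay below water in both genotypes. The ratio to TMA16 changed by -1.18 ± 0.10 with cadmium in wild type (edgeR adjusted p = 3.16e-08) and -0.52 ± 0.10 in the knockout (0.00199), and differed between genotypes by 0.66 ± 0.15 (0.0253). The log2 change of TMA16 was -0.01 ± 0.05 and 0.03 ± 0.05. For zinc the MARCH1 ratio was called higher in wild type, by 0.30 (edgeR adjusted p = 0.0202), and its value in the knockout was -0.13 (0.479). MASP2, a complement protease gene 103 bases past TARDBP, the gene of the RNA-binding protein TDP-43, and picked after values were seen, had ratio changes of -0.65, -0.64, -0.58 and -0.34, the last not past the threshold (edgeR adjusted p = 0.146). AC002310.6, named by the rule and 2073 bases past the zinc finger gene ZNF747, had ratio changes of -1.29 ± 0.29, -1.74 ± 0.27, -0.72 ± 0.28 and -1.40 ± 0.29, of which the third missed the threshold (edgeR adjusted p = 0.104).

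**Figure D4:**
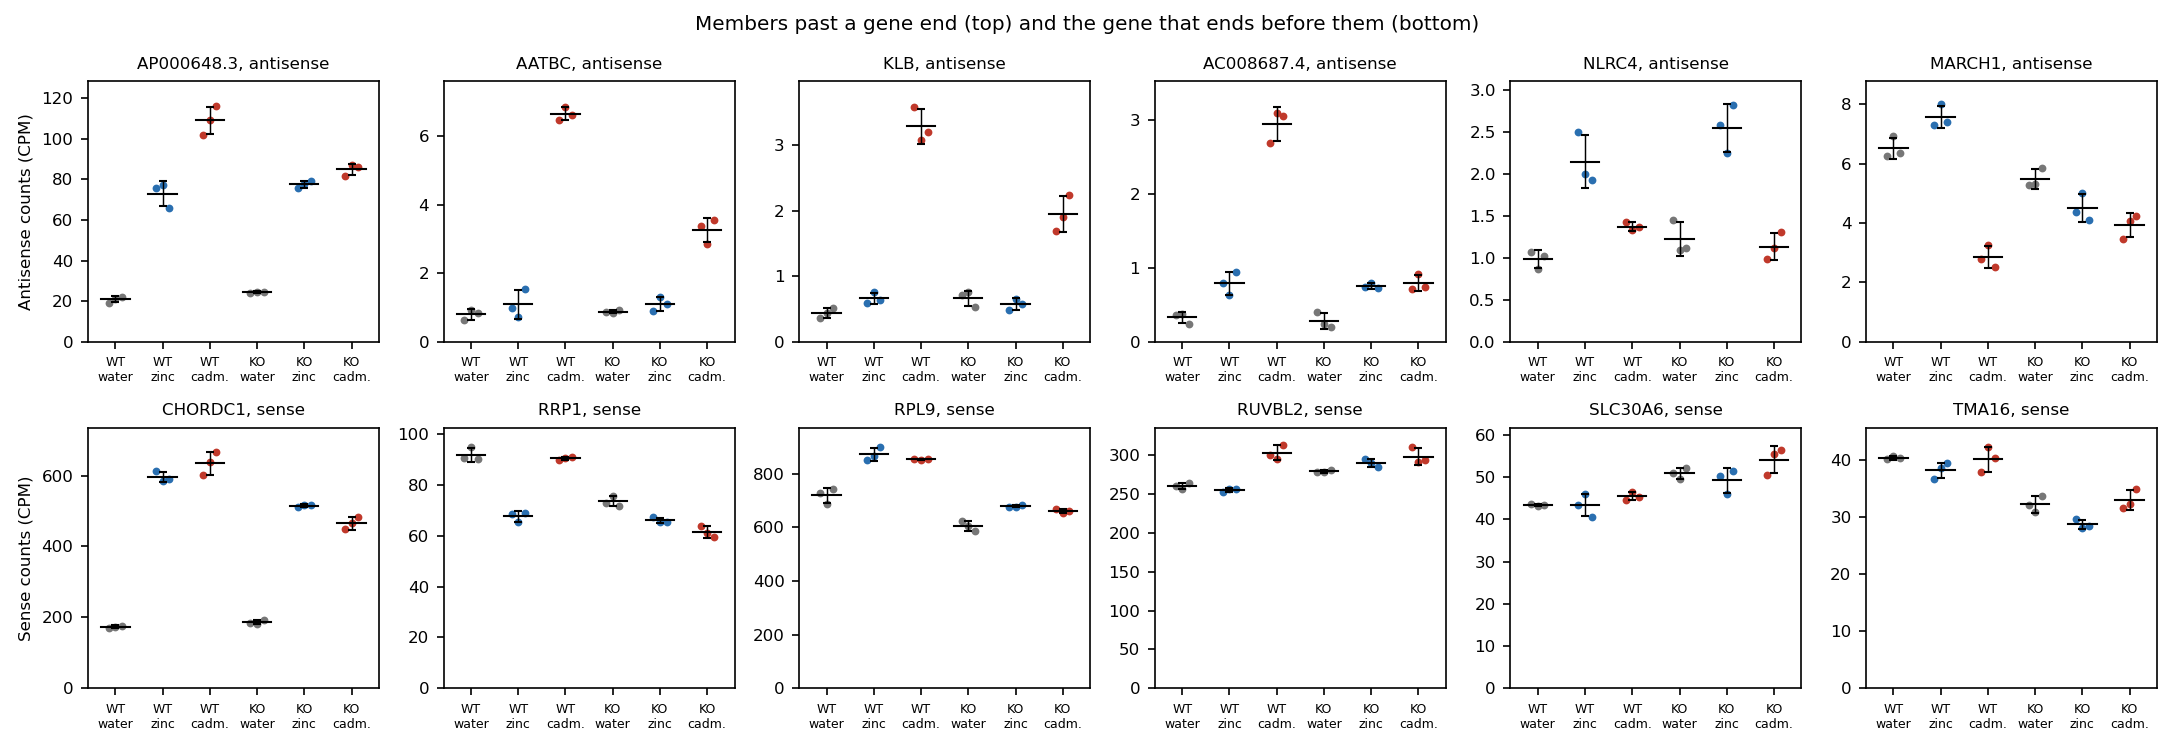
Antisense CPM of 6 members past a gene end (top) and sense CPM of the gene that ends before each (bottom), by library and group, with the mean (bar) and SD (whisker) of 3 libraries. Cadmium libraries stand apart in AATBC and KLB and zinc libraries are highest in NLRC4, while RRP1, RPL9 and SLC30A6 do not show these patterns; MARCH1 has its lowest mean in cadmium in each genotype.

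Past 2 genes on chromosome 8 the ratio was called higher in all 4 comparisons. Both were picked after values were seen. AC132219.2, 2640 bases past the stress granule clearance gene ZFAND1, had ratio changes of 0.57, 0.62, 0.57 and 0.64 (edgeR adjusted p = 0.0292, 0.0138, 0.0423 and 0.023), each lost when certain single libraries were left out (up to 0.17, 0.11, 0.22 and 0.14). AC010834.3, 8189 bases past the RNA-binding protein gene RBM12B, had 1.68 ± 0.25, 1.47 ± 0.21, 0.87 ± 0.26 and 1.10 ± 0.22. For zinc the antisense count of AC010834.3 was not called, at 0.22 ± 0.25 and -0.22 ± 0.26, while RBM12B fell by 1.45 ± 0.05 and 1.11 ± 0.05. With neighbours allowed only within 5 kb another gene was paired with AC010834.3, and its zinc ratio changes were -0.28 and -0.30.

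Members over introns showed both directions. AP000254.1 lies in an intron of SOD1, the copper and zinc superoxide dismutase gene, and was picked after values were seen, like LILRA6. Its antisense count was 0.700, 0.987 and 0.906 CPM in wild type in water, 3.75, 4.78 and 3.92 CPM in zinc and 2.31, 3.69 and 3.20 CPM in cadmium. Knockout values were 0.743, 0.755 and 0.848 CPM in water, 2.70, 3.27 and 2.92 CPM in zinc and 2.18, 2.67 and 3.08 CPM in cadmium. All metal libraries exceeded water. The ratio to SOD1 rose by 1.81 ± 0.21, 1.46 ± 0.22, 1.47 ± 0.22 and 1.45 ± 0.23 (edgeR adjusted p at most 0.000287). LILRA6, a leukocyte receptor gene in an intron of the ribosomal protein gene RPS9, had ratio changes of 1.65 ± 0.25, 1.65 ± 0.25, 0.60 ± 0.20 and 0.71 ± 0.20. The knockout calls of LILRA6 (edgeR adjusted p = 0.0495 and 0.0307) were lost without any 1 of the 3 knockout water libraries, at 0.12, 0.12 and 0.11 for zinc and 0.083, 0.089 and 0.088 for cadmium, and without any 1 of the 3 knockout libraries of the metal itself. The zinc call was also lost without replicate 1 or 3 of wild type in water, 1 or 2 of wild type in zinc, 2 of wild type in cadmium, or 1 or 3 of knockout in cadmium. CTAGE7P, a pseudogene in an intron of C10orf143 named by the rule, fell from 3.04 ± 0.0901 CPM in wild type in water to 1.25 ± 0.483 CPM in zinc and 0.468 ± 0.0174 CPM in cadmium. Its ratio changed by -1.13 ± 0.28, -2.81 ± 0.31, -1.25 ± 0.29 and -1.54 ± 0.30.

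Some exon-overlapping members also had a changed ratio. IL12A-AS1, opposite the cytokine gene IL12A and named by the rule, had 0.355 ± 0.150 CPM in wild type in water, 3.40 ± 0.119 CPM in zinc and 2.73 ± 0.472 CPM in cadmium. In the knockout it had 0.250 ± 0.019, 5.47 ± 0.266 and 0.633 ± 0.0618 CPM. MAP3K12, a kinase gene overlapping PCBP2 tail to tail and picked after values were seen, had 25639 antisense counts and ratio changes of 0.61 ± 0.05, 0.53 ± 0.06, 0.34 ± 0.06 and 0.38 ± 0.06.

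C20orf144 lies inside NECAB3 and rose with cadmium from 0.832 ± 0.240 to 4.99 ± 0.206 CPM in wild type and from 0.515 ± 0.222 to 4.06 ± 0.212 CPM in the knockout. Its ratio to NECAB3 rose by 2.13 ± 0.20 and 2.32 ± 0.23 (edgeR adjusted p = 1.14e-07 and 6.08e-07). AP001767.2, a pseudogene at RAB30-AS1, had 0, 0 and 0.11 CPM in wild type in water and 1.49 ± 0.141 CPM in zinc and 1.70 ± 0.416 CPM in cadmium. TSSK2, a testis kinase gene inside ESS2, fell with zinc from 2.26 ± 0.349 to 0.303 ± 0.0336 CPM in wild type and from 1.76 ± 0.205 to 0.499 ± 0.172 CPM in the knockout. Its ratio changed by -2.27 ± 0.25 and -1.35 ± 0.23 (edgeR adjusted p = 9.34e-07 and 0.000243). AGAP2, a GTPase-activating gene overlapping TSPAN31 head to head, had zinc ratio changes of -1.83 ± 0.14 in wild type and -0.78 ± 0.15 in the knockout. AC074212.1 opposite DMPK had ratio changes of -1.63 ± 0.10, -1.80 ± 0.10, -1.38 ± 0.11 and -0.97 ± 0.11, and these turned to 0.19, 0.23, 0.11 and 0.17 against the gene with the longest exon overlap instead. With that partner the knockout ratio of AGAP2 was 0.05 for zinc and 0.04 for cadmium. AP001767.2 passed the filter on low counts through metal libraries, so that a difference was bound to appear, and no test is given for it. The share of antisense reads outside opposite-strand exons was 73.7% for C20orf144, 59.6% for AP001767.2 and 0% for TSSK2, AGAP2 and AC074212.1.

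Some members without a neighbour also changed. ARHGAP30, a GTPase-activating protein gene, had 1.10 ± 0.0514 CPM in wild type in water, 0.893 ± 0.206 CPM in zinc and 9.48 ± 1.01 CPM in cadmium. Counts in the knockout were 1.87 ± 0.106, 0.847 ± 0.184 and 5.40 ± 0.431 CPM. The log2 change with cadmium was 3.11 and 1.53 (edgeR adjusted p = 6.13e-18 and 2.48e-10). CD4, the T cell co-receptor gene, rose from 0.419 ± 0.0175 CPM in wild type in water to 2.53 ± 0.237 CPM in zinc and 2.82 ± 0.20 CPM in cadmium; these are reads on its opposite strand. AC245060.6, named by the rule, fell from 3.24 ± 0.103 to 1.24 ± 0.112 CPM in zinc and 0.514 ± 0.12 CPM in cadmium in wild type. ARHGAP30 and CD4 were picked after values were seen.

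Knockout and wild type differed in water for many members. Antisense counts were higher in the knockout for 423 members and lower for 545, beside 9.16% and 19.5% of all tested genes. Scaled by antisense counts themselves, 577 were higher and 282 lower, with no share of all tested genes to set beside them. Z94160.2, inside the gene ELFN2, had no count in the 3 wild-type water libraries and 2.43, 2.54 and 2.28 CPM in the knockout, which is at least 76.1-fold higher when the wild-type group is set at 3 counts in all. FOXC2-AS1, opposite the transcription factor gene FOXC2, had 0.0503 ± 0.0278 CPM in wild type and 2.46 ± 0.228 CPM in the knockout, and FOXC2 had 0.340 ± 0.205 and 16.8 ± 0.215 CPM. AC012512.1, a pseudogene without a neighbour, had 0.0899 ± 0.0816 and 2.46 ± 0.566 CPM. FOXCUT, near no counted opposite gene, fell from 5.19 ± 0.846 to 0.336 ± 0.153 CPM, AC025431.1 inside the retinoic acid enzyme gene ALDH1A2 from 3.77 ± 0.541 to 0.267 ± 0.19 CPM and AL929472.3 inside MANEAL from 25.5 ± 0.727 to 2.64 ± 0.215 CPM. The 3 higher members had 0, 5 and 8 counts over the wild-type water libraries and at least 250 each over those of the knockout. They passed the filter on low counts through the knockout, so that a difference was bound to appear, and no test is given for them. Of the 3 lower members, FOXCUT and AC025431.1 had 34 and 30 counts over the knockout water libraries. They passed the filter on low counts through wild type, so no test is given for them either. AL929472.3 had 273 counts over the knockout water libraries and an edgeR adjusted p of at most 2.45e-12.

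The metal response of members differed between genotypes for fewer genes. For zinc, 102 members had a more positive and 47 a more negative change in the knockout (1.93% and 0.92% of all tested genes). For cadmium, 124 were more positive and 132 more negative (2.69% and 2.72%). Scaled by antisense counts, the split became 24 and 46 for zinc and 36 and 140 for cadmium, with no share of all tested genes to set beside it. For the ratio, the counts were 3 and 1 for zinc (0.234% and 0.143% of all pairs) and 18 and 18 for cadmium (0.662% and 0.636%). Leaving out single libraries moved the zinc count of 4 to between 2 and 10, with 10 without replicate 2 of wild type in water and 2 without replicate 2 or 3 of knockout in water or replicate 1 of knockout in zinc. The cadmium count of 36 moved to between 15 and 37. It was 18 without replicate 3 of wild type in cadmium, 19, 22 and 15 without replicates 1, 2 and 3 of knockout in water, and 21 without replicate 2 or 3 of knockout in cadmium.

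Both-strand calls were set beside antisense and sense calls of the same member. Of 1009 members tested on both-strand counts, 546 had enough sense counts to be tested on those too. Among the 1009, 507 were called for zinc in wild type, where 61.3% of all genes tested were. Of these, 252 had a sense test, 147 were called in the same direction on sense counts, and 74 with a sense test were called in that direction on antisense but not on sense counts. For cadmium in wild type 503 were called (61.7% of all genes), of which 265 had a sense test, 148 were called on sense counts and 83 on antisense but not sense counts. In the knockout zinc gave 414 calls (55.7%), with 218, 121 and 68 in the same order. Cadmium in the knockout gave 320 (46.6%), with 173, 88 and 54. A sense count that was not called is not shown to be unchanged. The split by sense and antisense calls has no share over all genes beside it, so it cannot be read as particular to members.

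Genes of transcript end formation and nuclear RNA decay were read on sense counts. These lists were chosen with earlier results of these data known. Of 29 factors of cleavage, polyadenylation and termination, 8 were higher and 17 lower with zinc in wild type, beside 29.9% and 32.2% of 18456 genes tested. With cadmium in wild type 11 were higher and 10 lower (30.2% and 32.1%). In the knockout zinc gave 6 and 15 (29.6% and 27.9%) and cadmium 9 and 12 (24.3% each way). The list's median change was -0.19, 0.01, -0.10 and 0.01, where that of all genes was between -0.01 and 0.01. The termination factor gene PCF11 fell with zinc from 103 ± 3.87 to 53.3 ± 4.85 CPM in wild type and from 98.2 ± 2.52 to 55.7 ± 1.49 CPM in the knockout. CSTF1, a subunit gene of the cleavage stimulation factor, fell from 53.1 ± 0.580 to 22.4 ± 1.95 CPM and from 57.9 ± 3.42 to 29.6 ± 0.446 CPM. PPP1R10, a phosphatase subunit gene of the termination machinery, rose with zinc from 90.1 ± 1.60 to 257 ± 27.7 CPM in wild type and with cadmium to 219 ± 3.87 CPM. The log2 change of XRN2 was 0.08 ± 0.03 or less in all 4.

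Of 22 tested factors of nuclear RNA decay, 4 were higher and 12 lower with zinc in wild type (29.9% and 32.2% of all genes tested). With cadmium in wild type 13 were higher and 4 lower (30.2% and 32.1%). In the knockout the counts were 5 and 10 for zinc (29.6% and 27.9%) and 6 and 8 for cadmium (24.3% each way). The list's median change was -0.11, 0.13, -0.09 and 0.02 in this order. ZCCHC8, a subunit gene of the NEXT complex that hands nuclear RNA to the exosome, rose in wild type from 55.1 ± 2.31 CPM to 125 ± 6.28 CPM in zinc and 173 ± 7.97 CPM in cadmium. Its partner RBM7 rose from 20.7 ± 0.249 CPM to 27.1 ± 1.47 and 39.7 ± 1.39 CPM, and the exosome subunit gene EXOSC6 from 47.6 ± 1.79 CPM to 73.5 ± 6.48 and 117 ± 4.68 CPM. Others fell: the exosome subunit gene EXOSC4 by 0.78 ± 0.06 and EXOSC3 by 0.48 ± 0.05 with zinc in wild type, and ZFC3H1, a gene of the PAXT connection to the exosome, by 0.65 ± 0.04 with cadmium in wild type (log2). A link between these levels and the members was not tested.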

How the data were processed

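Stranded polyadenylated RNA was sequenced from 18 HEK293A libraries, per the labels' protocols. The authors deposited raw read counts for each Ensembl gene, in 3 columns a library that, from their values, hold both strands, antisense and sense. The submitters' processing notes name STAR, hg38 and GRCh38.p13. The STAR version, the counter, the annotation and the handling of multi-mapping reads are each not given in the sources used here. GENCODE 29 supplied symbols and coordinates for 58216 of the 58336 gene IDs.

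The members and lists were chosen with earlier results of these data known. Neighbours were opposite-strand genes with a sense sum of at least 500, overlapping or within 10 kb. Genes passing filterByExpr (minimum count 10) were tested with edgeR's quasi-likelihood test in a model of the 6 groups, with library sizes and TMM factors from sense counts and Benjamini-Hochberg adjustment over all genes tested, at a threshold of 0.05. The ratio was tested as the interaction of readout and group, with the library as a block. Standard errors of log2 changes were derived from the test's F value and are rough where counts are low. CPM are counts per 1000000 sense counts after TMM. Named genes were the 6 members with the highest antisense sum, the 4 highest and 4 lowest antisense changes past the threshold without overlap in each metal comparison, the 3 highest and 3 lowest ratio changes, the 3 highest and 3 lowest in knockout against wild type, and those at the rule's limits. Other named members were picked after values were seen. A member that the rule names is not reported here.

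Deviations of same-numbered replicates of different groups had correlations of -0.14 to 0.16 over 45 pairs. Of the 18 libraries, 11 correlated best with their own number. No 2 libraries of a group agreed within sampling noise (chi-square per degree of freedom 1.34 to 4.79). With 3 libraries a group, a member near 1 CPM rests on few reads per library. The fits were tested on simulated data. Alternatives were another scaling, filter, tool, neighbour rule, member rule, replicate block and leaving out each library. Intervals and floors cover counting error only. R 4.3.3, edgeR 4.0.16, limma 3.58.1, DESeq2 1.42.0, Python 3.11.15, numpy 2.4.6, pandas 2.3.3, scipy 1.17.1 and matplotlib 3.10.9 were used.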

Additional observations from a re-analysis of the deposited data

Results flagged for a closer look

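The following members had a metal response that differed between knockout and wild type by edgeR's test of the difference itself; values are knockout minus wild type on the log2 scale and no cause was tested. In antisense counts, the difference for zinc was 0.25 for AC011603.2, 0.25 for AC093484.3, 0.40 for AL662797.1, 0.64 for AC105020.6, 0.87 for AC105020.2, 0.68 for AGAP2 and 0.73 for AC025259.3, so these changes were more positive in the knockout. It was -2.79 for AP001767.2, -4.79 for Z94160.2, -1.35 for ADAMTSL4, -0.92 for SLC7A11-AS1 and -0.22 for MRNIP.

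For cadmium the difference in antisense counts was 0.26 for AC011603.2, 0.45 for AC093484.3, 0.47 for AL662797.1, 0.59 for AC105020.6, 1.45 for CTAGE7P, 1.13 for AC245060.6, 1.55 for AC018470.1, 0.79 for AC074212.1, 0.49 for AL929472.3 and 0.69 for MARCH1. It was -0.16 for ATG10, -2.95 for AP001767.2, -5.26 for Z94160.2, -2.86 for AC022217.2, -2.10 for AC087521.1, -1.56 for IL12A-AS1, -1.87 for AC025259.3, -1.29 for ADAMTSL4, -0.58 for AP000648.3, -1.15 for AATBC, -1.30 for KLB, -1.63 for AC008687.4, -1.42 for MUC6 and -1.07 for AC011446.2. Z94160.2 had no count in wild type in water, 5 in zinc and 12 in cadmium, and passed the filter on low counts through the knockout. Its fitted differences depend on the prior count and are neither a size nor a bound. AP001767.2 had 4 counts in wild type in water, all in 1 library. AP001767.2 and AC008687.4 reached at least 10 counts in all 3 libraries only in metal groups. The differences of AP001767.2 and AC008687.4 are rough, and no test is read from them. AC022217.2, AC087521.1 and IL12A-AS1 had 4, 7 and 35 counts over the wild-type water libraries and 11, 25 and 26 over those of the knockout. AC022217.2 and AC087521.1 passed the filter on low counts through metal libraries. The differences of AC022217.2, AC087521.1 and IL12A-AS1 are therefore rough, and no test is read from them.

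In the ratio to the neighbour, the zinc difference was 1.05 for AGAP2. The cadmium difference was -2.98 for AP001767.2, 1.70 for LRRC37A, 0.83 for AC074212.1, -1.63 for IL12A-AS1, -1.19 for KLB and 0.66 for MARCH1. AC025259.3 had differences of opposite sign for the 2 metals.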

How the results depend on the processing

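Of 12222 alternative values of the named members, 11876 kept direction and side of the threshold, 239 lost the call, 98 gained it and 9 changed direction. The difference of the zinc response between genotypes was called for 70 members with factors from antisense counts, against 149. For the ratio, its count of 4 became 9 with at least 50 counts in 3 libraries, 8 without the library block, 2 with the 4-fold member rule, and 2 to 10 when single libraries were left out: 10 without replicate 2 of wild type in water, and 2 without replicate 2 or 3 of knockout in water or replicate 1 of knockout in zinc. The cadmium count of 36 became 23 with the longest overlap, 56 with at least 50 counts, and 15 to 37 without single libraries. It was 18 without replicate 3 of wild type in cadmium, 19, 22 and 15 without replicates 1, 2 and 3 of knockout in water, and 21 without replicate 2 or 3 of knockout in cadmium. The knockout's antisense share changed with zinc by -0.217 percentage points, -0.170 without mitochondrial genes and -0.088 without the 20 top genes, and with cadmium by -0.245, -0.139 and -0.131. Knockout minus wild type was 0.092, and -0.166 without those 20. Directions reversed for ATG10 in cadmium in the knockout (-0.09 by sense library size alone), for AGAP2 (0.05 and 0.04) and AC074212.1 (0.19, 0.23, 0.11 and 0.17) against the longest overlap, and for AC010834.3 (-0.28 and -0.30) within 5 kb. The causes were not tested beyond these constructions. With a replicate block, antisense calls were 1071, 1022, 852, 633, 979, 160 and 270 against 1058, 1012, 846, 620, 968, 149 and 256, and ratio calls 311, 272, 206, 110, 5 and 36 against 316, 268, 211, 114, 4 and 36. What same-numbered libraries share beyond a number is not given in the labels, and 11 of 18 correlated best with their own number. Depth limits members near 1 CPM, where 1 library can decide a call.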
